A study of Malus domestica with 8 samples.

Results

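The features described here are 73 transcripts of apple leaf that were lower in every library of 3 MdAGG knock-out lines than in both libraries of non-transformed plants. They were picked from 32373 features that passed a filter on low counts, out of 52311 in the deposited tables. The members were chosen by 2 conditions, both on log2 CPM, the read count scaled to a common library size with TMM factors. The highest of the 6 knock-out libraries had to lie below the lowest of the 2 non-transformed libraries. In addition, the mean of the 3 line means had to be at least 1 log2 unit below the non-transformed mean, which is a change of about 2-fold or more. The first condition was met by 498 of the 32373 features (1.54%), and both together by 75 (0.232%). Of those 75, MD15G1174400 and MD15G1177600 lie in a run of identifiers, MD15G1164700 to MD15G1180600, that was left out. Since the difference from the non-transformed plants chose the members, it is given below as a description, without a test.

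MdAGG stands for apple agglutinin. Agglutinins are lectins, proteins that bind sugars and can clump cells that carry them, and the apple agglutinins are known for transcripts that accumulate in leaves after treatment with acibenzolar-S-methyl (ASM). ASM is a synthetic inducer of plant defence that works like the hormone salicylic acid, which drives systemic acquired resistance, a state of raised readiness against pathogens throughout the plant.

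All libraries came from leaves of the apple cultivar 'Gala'. There were 2 libraries each of non-transformed plants (wt) and of the knock-out lines mdagg-2, mdagg-3 and also mdagg-4, made with CRISPR/Cas9, which the series' text describes as bulks of leaves from independent experiments. Every plant, controls included, had grown for 8 weeks in a greenhouse and had received ASM at 0.2 g/l 3 days before sampling, so no library shows the leaf without ASM. No library came from a transformed plant without the knock-out, so loss of MdAGG and the effects of transformation cannot be told apart in a difference from wt. No gene name could be attached, since the files carry identifiers alone and 0 of the 52311 were found in the table of names. For that reason the members are given by identifier with no function, and neither the knock-out nor the leaf label was checked against marker transcripts. In leaf bulks, fewer cells of a kind and less RNA per cell cannot be told apart.

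The libraries held 28591839 to 36995885 estimated reads, with TMM factors from 0.913 to 1.11. The first principal component of log2 CPM carried 46.3% of the variance, with mdagg-2 replicate 1 at one end (-100) and mdagg-4 replicate 2 at the other (93.1). Without these libraries the same conditions gave 166 features, of which 63 were among the 73. The number of members also depended on having 2 wt libraries, since 374 features met the conditions without wt replicate 1 and 483 without wt replicate 2. The first condition is easier to meet with fewer libraries, so a rise in these numbers is partly built into it. Across all features, edgeR's quasi-likelihood test of the mean of the lines against wt called 0 lower and 0 in all at an adjusted p under 0.05. At an unadjusted p under 0.05 it gave 929 features (2.87%), 338 of them lower. DESeq2 called 19 of 34967 features lower (0.0543%), and 16 of these were members, a count that the choice of members largely fixes.

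The members were scarce transcripts. Their mean level in wt ran from 0.328 to 30.3 CPM with a median of 0.876 CPM, against a median of 9.62 CPM over all filtered features. Per length, in TPM, their wt level was 0.289 to 31.5 with a median of 1.39 TPM, against 7.64 TPM over all features. In 56 members (76.7%) the mean log2 CPM over the 8 libraries was below 0, compared with 15.7% of all features. In wt the lower of the 2 read counts ran from 10 to 997 with a median of 27, and 49 members (67.1%, against 21.7% of all features) had fewer than 50 reads in at least 1 wt library. Counting error alone is therefore wide for most of them. In wt it is smaller for the other 24 members, which had 50 or more reads in both wt libraries. The spread between libraries was still large in several of these, as given below.

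The filter kept features that reached 0.288 CPM in at least 2 libraries, and all 73 members reached it in both wt libraries. In 26 members (35.6%, against 1.18% of all features) fewer than 2 knock-out libraries reached it, so these passed through wt alone and had to be lower in the lines. The remaining 47 reached it in 2 or more knock-out libraries as well. Summed over the members, the level was 257 and 182 CPM in the wt libraries. In the knock-out libraries the sum was 76.4 and 55.8 CPM for mdagg-2, 82.8 and 69.8 CPM for mdagg-3, and 70.7 and 53.1 CPM for mdagg-4. Replicate 1 of each group thus held the larger sum, and the 2 groups of libraries did not overlap, as the conditions require. The sums are weighted toward the abundant members. Counted one by one, replicate 2 was above replicate 1 in 35 members for wt, 39 for mdagg-2, 34 for mdagg-3 and 38 for mdagg-4.

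**Figure D1:**
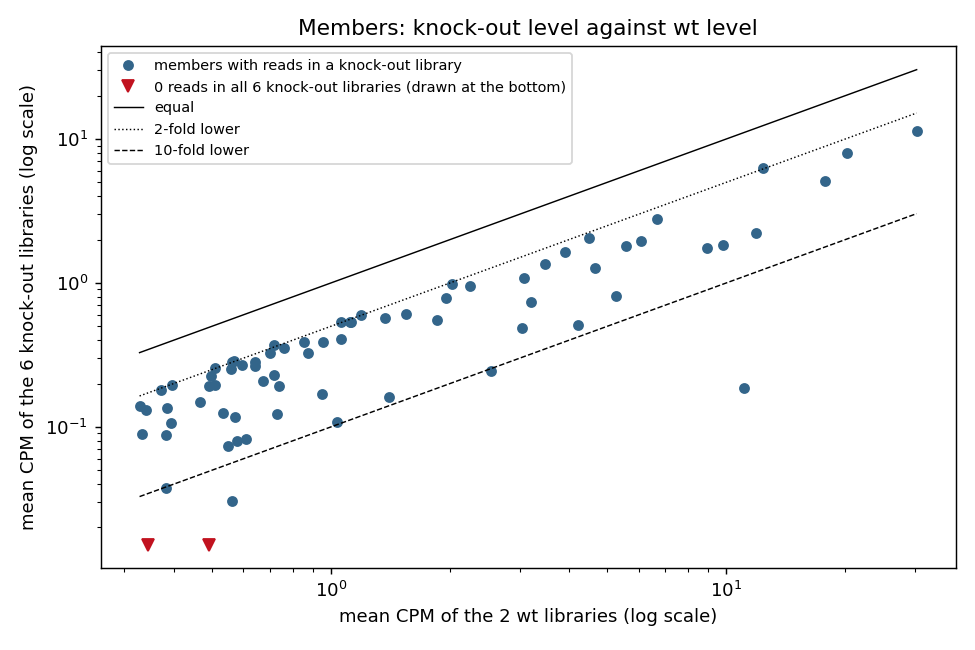
Each point is a member, with its mean CPM in the 2 wt libraries on the horizontal axis and its mean CPM in the 6 knock-out libraries on the vertical axis, both on log scales, beside lines of equal, 2-fold lower and 10-fold lower level. Many members sit near the 2-fold line at a wt level below 1 CPM, MD16G1025800 lies farthest below it at 11.1 CPM in wt, and the 2 triangles at the bottom are members with 0 reads in all knock-out libraries.

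The mean log2 difference from wt ran from -6.13 to -1.004 with a median of -1.45, where the median over all features was -0.012. It was -3 or less in 6 members and -2 or less in 23, between -2 and -1.5 in 10, and between -1.5 and -1 in 40. For the 71 members with reads in a knock-out library the ratio of wt to knock-out level ran from 1.93-fold to 59.5-fold with a median of 2.65-fold. The distance between the lowest wt and the highest knock-out library was small in many members. Its median was 0.309 log2 units, it was under 0.2 in 25 members, and it exceeded 1 in 12 and 2 in 5.

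On log2 CPM with a prior count of 2, the better counted members did not have the smaller steps. The 24 members with 50 or more reads in both wt libraries differed from wt by -6.13 to -1.03 log2 with a median of -1.81, and 16 of them were lower by 1 log2 unit or more in all 3 lines. Their lowest wt library was more than 0.5 log2 units above the highest knock-out library in 9. The 49 others differed by -3.17 to -1.004 log2 with a median of -1.27, and 20 of them were lower by 1 log2 unit or more in all 3 lines. These 49 had 10 to 89 reads in a wt library (median 22) and 0 to 43 in a knock-out library (median 6), and 17 had a separation above 0.5 log2 units. The prior count shrinks the differences of low counts more, so the 2 medians are not on equal terms. With a prior count of 0.5, MD17G1221400, which has few reads, moved from -2.78 to -4.61. MD01G1051800, with many, moved from -1.67 to -1.68.

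MD16G1025800 stood farthest from wt. It had 457 and 341 reads in wt. Mdagg-2 had 0 and 16, mdagg-3 had 10 and 9, and mdagg-4 had 0 and 0. The wt level was 11.1 ± 3.17 CPM (SD, n = 2) and the knock-out level 0.186 ± 0.225 CPM (SD, n = 6), a ratio of 59.5-fold. Its lowest wt library lay 3.89 log2 units above its highest knock-out library, the widest separation among the members. With 3 knock-out libraries at 0, its fitted difference depends on the constant added before taking logs, and moved from -6.13 to -7.21 when the prior count was lowered from 2 to 0.5.

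Reads were absent from all knock-out libraries for MD13G1258800 and MD17G1221400. MD13G1258800 had 22 and 13 reads in wt, and MD17G1221400 had 12 and 13 after rounding. Both wt estimates of MD17G1221400 were not whole numbers, so the counting program had divided reads among similar transcripts there. Against a floor of 3 counts per library, MD13G1258800 was at least 5.36-fold lower and MD17G1221400 at least 3.76-fold lower in the lines. The floor covers counting error in the knock-out libraries only, and the wt level enters these bounds without its own error. MD14G1169000, chosen for mention after its values were seen, was close to that state, with 18 and 23 reads in wt and 0 to 2 reads in each knock-out library. In all, 5 members had 0 reads in at least 3 knock-out libraries and 17 in at least 1. The share of all features with such zeros was not computed, and a low level in the lines was part of the choice.

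MD05G1005300 had similar means in the 3 lines. It had 80 and 105 reads in wt, with mdagg-2 at 6 and 7, mdagg-3 at 11 and 7, and mdagg-4 at 10 and 7. These are 2.53 ± 0.277 CPM in wt (SD, n = 2) and 0.244 ± 0.0697 CPM in the lines (SD, n = 6), and the 3 line differences were -3.20, -2.99 and -3.18 log2. The mean of the lines was about 10.4-fold under wt. The knock-out libraries ranged over 0.845 log2 units, close to the median of 0.846 over all features. The estimated reads of MD05G1005300 were whole numbers in only 3 of the 8 libraries, so in the others reads had been divided among similar transcripts. Between mdagg-4 and the other lines this member differed by -0.10 ± 0.45 log2 (SE, edgeR adjusted p = 0.95), an interval too wide to show that the lines were alike.

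The features whose log2 CPM over the 8 libraries was most like that of MD05G1005300 were all members. They were MD17G1221400 (Pearson r of 0.982), MD04G1020300 (0.971) and MD05G1220000 (0.968), and the likeness rests on the wt against knock-out step that chose them. MD04G1020300, at 3466 bases the longest member, had 124 and 161 reads in wt, 46 and 50 for mdagg-2, 55 and 64 for mdagg-3 as well as 59 and 48 for mdagg-4. It stood at 3.90 ± 0.396 CPM in wt (SD, n = 2) and 1.63 ± 0.225 CPM in the lines (SD, n = 6), a smaller step than that of MD05G1005300. MD05G1220000 had far fewer reads, with 12 and 16 reads in wt and 0 to 3 in each knock-out library.

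**Figure D2:**
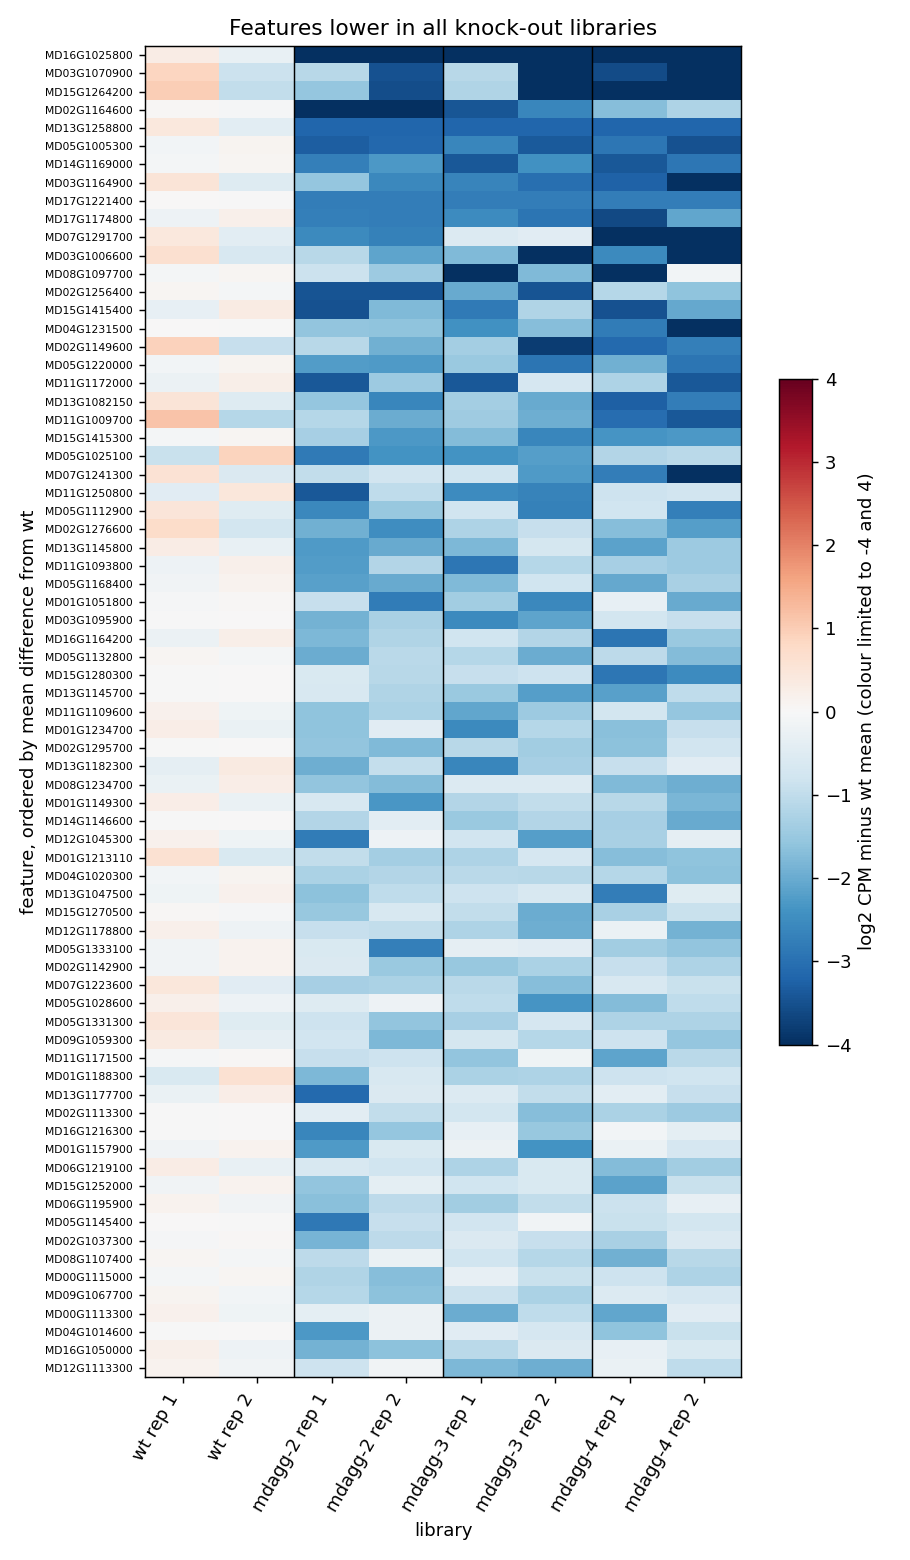
Rows are the 73 members ordered by mean difference from wt, columns are the 8 libraries grouped by line, and colour is log2 CPM minus the wt mean of that member, limited to -4 and 4. All knock-out columns are on the blue side of the wt columns, some rows are even across the lines (MD05G1005300), and others differ by line (MD07G1291700, MD02G1164600) or by replicate (MD03G1070900).

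The members with the highest wt CPM were MD01G1051800 at 30.3 ± 1.65 CPM, MD01G1213110 at 20.1 ± 11.1 CPM, MD07G1291700 at 17.7 ± 7.20 CPM and MD00G1115000 at 12.4 ± 0.862 CPM (SD, n = 2). Next came MD03G1006600 at 11.9 ± 6.97 CPM, MD16G1025800, MD11G1009700 at 9.79 ± 9.19 CPM and MD02G1149600 at 8.94 ± 7.13 CPM (SD, n = 2). Per length the order was another, with wt means of 31.5 TPM for MD01G1213110, 27.3 TPM for MD01G1051800, 23.4 TPM for MD00G1115000, 20.4 TPM for MD16G1025800 and 8.76 TPM for MD07G1291700. The large SDs come from wt replicate 1, which was well above wt replicate 2 in most of these, while MD01G1051800 and MD00G1115000 had nearly equal wt libraries.

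MD00G1115000 had 403 and 500 reads in wt. Mdagg-2 had 154 and 111, mdagg-3 had 299 and 239, and mdagg-4 had 238 and 210. It was lower by 1.97-fold, least so in mdagg-3. MD01G1051800 had 997 and 1211 reads in wt, with mdagg-2 at 464 and 126, mdagg-3 at 350 and 180, and mdagg-4 at 837 and 298. Its knock-out libraries spread from 4.26 to 24.3 CPM, and mdagg-4 replicate 1 came close to the lower wt library, at 29.1 CPM. MD01G1213110 had 960 and 472 reads in wt, 271 and 214 for mdagg-2, 240 and 416 for mdagg-3 as well as 196 and 243 for mdagg-4. Its highest knock-out library lay only 0.082 log2 units below wt replicate 2, and its difference of -1.26 log2 was -0.67 without wt replicate 1 and -1.85 without wt replicate 2.

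A few further members with 50 or more reads in both wt libraries, described after their values were seen, are given for their spread. MD02G1295700 had 119 and 134 reads in wt, equal to 3.47 and 3.48 CPM. Its knock-out libraries ran from 29 reads in mdagg-2 replicate 2 to 82 in mdagg-4 replicate 2, or 0.981 to 2.04 CPM, all well under wt. MD02G1276600 had 235 and 94 reads in wt and 20 to 76 in the knock-out libraries, so its wt libraries were the ones far apart. MD02G1037300 had 67 and 80 reads in wt and 15 to 53 in the knock-out libraries, with the lowest value in mdagg-2 replicate 1 and the highest in mdagg-4 replicate 2.

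The level of the wt libraries decided the size of the step in several members. MD11G1009700 had 558 and 127 reads in wt. Mdagg-2 had 95 and 53, mdagg-3 had 82 and 66, and mdagg-4 had 29 and 26. Wt replicate 2, at 3.30 CPM, was barely above mdagg-2 replicate 1, at 3.27 CPM. Its difference from wt of -2.16 log2 was -1.03 without wt replicate 1 and -3.31 without wt replicate 2. MD02G1149600 moved in the same way, from -2.34 to -1.44 and -3.25, and so did MD03G1070900, from -3.37 to -2.51 and -4.24. For MD15G1264200 the values were -3.27 with all libraries, -2.29 without wt replicate 1 and -4.26 without wt replicate 2, and for MD03G1006600 they were -2.68, -2.06 and -3.32.

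MD08G1097700 was uneven within the lines. It had 99 and 126 reads in wt and 48 and 32 in mdagg-2, while mdagg-3 had 0 and 31 and mdagg-4 had 0 and 115. Mdagg-4 replicate 2 was only 0.012 log2 units below the lower wt library, although the same line's replicate 1 had an estimate that rounded to 0. The difference from wt of -2.61 log2 was -1.67 without mdagg-4 replicate 1 and -3.53 without mdagg-4 replicate 2. The estimated reads of this member were whole numbers in only 1 library, so in the others the counting program had divided reads among similar transcripts.

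The authors' deposited table gives each line against wt with an adjusted p. At an adjusted p under 0.05 the authors' deposited table has 9 of 32879 features lower for mdagg-2 (0.0274%), 363 of 32237 for mdagg-3 (1.13%) and 59 of 35596 for mdagg-4 (0.166%). Among the 73 members 4, 11 and 13 were listed so. In at least 1 line 416 of 35609 features were listed lower (1.17%), and 19 of these were members. These counts come from the libraries that chose the members and are a description. All 3 contrasts share the wt libraries. In at least 2 lines the authors' deposited table lists 14 features, of which 8 are members.

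MD05G1005300 is the member listed lower for every line, at log2 fold changes of -3.52, -3.21 and -3.46 in the authors' deposited table (adjusted p = 0.000866, 0.000167 and 5.85e-05). The other 7 were listed in 2 lines. MD02G1164600 and MD07G1291700 passed in mdagg-2 in that table, the first also in mdagg-3 and the second also in mdagg-4. MD05G1168400 passed in mdagg-2 and mdagg-4, and MD03G1164900, MD11G1009700, MD15G1415300 and MD16G1025800 in mdagg-3 and mdagg-4, per the authors' deposited table. MD05G1168400 had 188 and 257 reads in wt, with mdagg-2 at 38 and 43, mdagg-3 at 53 and 124, and mdagg-4 at 49 and 98. MD03G1164900 had 65 and 35 reads in wt, 12 and 5 for mdagg-2, 5 and 4 for mdagg-3 as well as 3 and 1 for mdagg-4. Both were low in each of the lines, MD03G1164900 most of all in mdagg-4 and MD05G1168400 most of all in mdagg-2.

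Across the lines the members differed from wt by similar amounts in the median and by varying amounts one by one. The median difference from wt was -1.54 log2 for mdagg-2, -1.498 for mdagg-3 and -1.48 for mdagg-4. The difference was -1 or less in all 3 lines for 36 members, in 2 lines for 26 and in 1 line for 11. By line, it was -1 or less in 60 members for mdagg-2, 53 for mdagg-3 and 58 for mdagg-4. The lowest line mean was that of mdagg-4 in 30 members (41.1%, against 40.3% of all features), mdagg-2 in 25 (34.2%, against 28.8%) and mdagg-3 in 18 (24.7%, against 31%). Among the 498 features lower in all knock-out libraries, the lowest line was mdagg-2 in 43.4%, mdagg-3 in 28.9% and mdagg-4 in 27.7%, an order unlike that of the members. The 3 line means spanned a median of 0.856 log2 units in the members and 0.39 over all features, and lay within 0.5 log2 units of each other in 16 members (21.9%, against 62.1% of all features). They were 2 or more log2 units apart in 7 members (9.59%, against 1.68% of all features). Scarce transcripts scatter more, and the part of the low counts in this span was not tested. Over the 6 knock-out libraries the members of mean log2 CPM below 0 ranged over a median of 1.82 log2 units, against 1.64 for all features of that level.

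**Figure D3:**
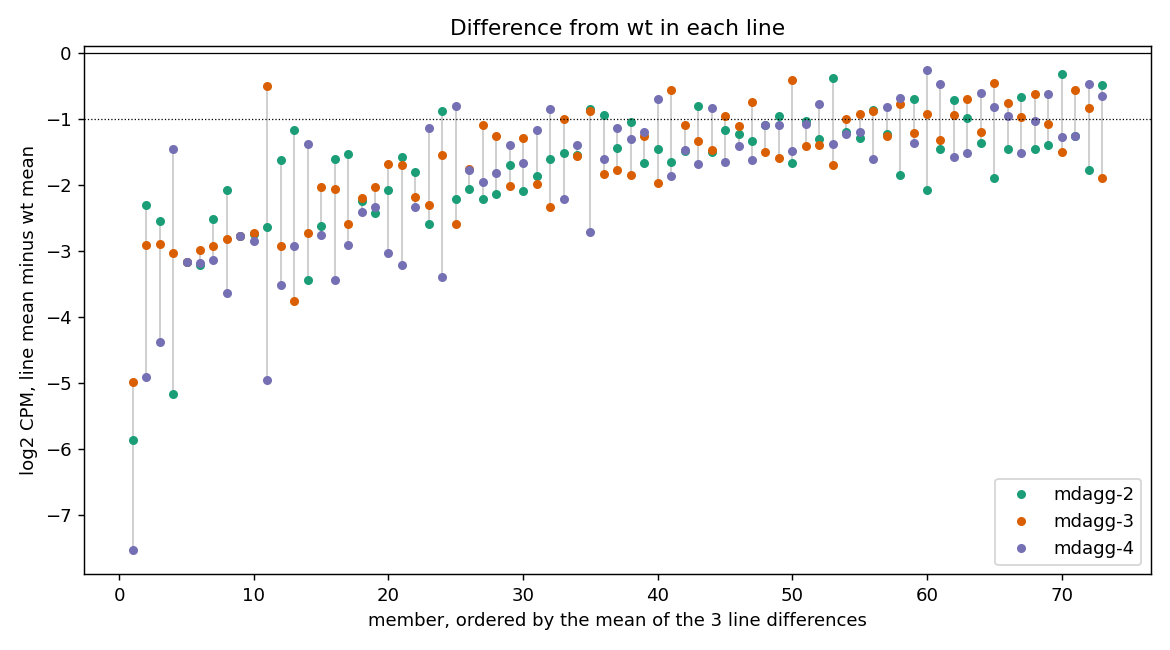
The horizontal axis ranks the 73 members by their mean difference from wt, and the vertical axis gives log2 CPM of each line mean minus the wt mean, with 1 coloured point per line joined by a grey line. The points lie within 0.5 log2 units of each other in 16 members, and they are farthest apart for MD07G1291700 at rank 11, from -0.49 in mdagg-3 to -4.96 in mdagg-4.

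Contrasts between the lines were tested, since they leave the mean difference from wt aside, although the condition that all knock-out libraries stay under wt limits how high a line can lie. In edgeR's quasi-likelihood test 1 of 32373 features differed between the 3 lines at an adjusted p under 0.05 (0.00309%), and 0 members did. At an unadjusted p under 0.05 there were 1027 features (3.17%) and 9 members (12.3%), and DESeq2 called 67 features (0.192%) and 3 members. For mdagg-4 against the mean of mdagg-2 and mdagg-3, edgeR called 0 features and 0 members, with 2314 features (7.15%) and 13 members (17.8%) at an unadjusted p under 0.05. Of those 13 members, 6 were lower and 7 higher in mdagg-4. DESeq2 called 71 features (0.218%) and 3 members. Between mdagg-3 and mdagg-2, edgeR called 1 feature (0.00309%) and 0 members, with 546 features (1.69%) and 6 members (8.22%) at an unadjusted p under 0.05, and DESeq2 called 15 features (0.0363%) and 1 member. These shares of members are not set against those of all features, since the same knock-out values entered the choice and 26 members reached the filter's level in fewer than 2 knock-out libraries.

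The members that DESeq2 called between lines were MD07G1291700, MD15G1280300 and MD02G1164600. MD07G1291700 had 781 and 486 reads in wt. Mdagg-2 had 82 and 75, mdagg-3 had 357 and 447, and mdagg-4 had 29 and 11. Its level was 2.68 ± 0.20 CPM for mdagg-2, 12.1 ± 0.53 CPM for mdagg-3 and 0.558 ± 0.40 CPM for mdagg-4 (SD, n = 2 each), and mdagg-3 replicate 2 was just below wt replicate 2, at 12.4 against 12.6 CPM. The order of the lines, mdagg-3 above mdagg-2 above mdagg-4, held in both replicates without overlap. The difference of mdagg-4 from the other lines was -3.36 ± 0.48 log2 (SE), with an adjusted p of 0.52 in edgeR and 5.37e-10 in DESeq2. Over 12 alternatives that adjusted p ran from 5.37e-10 to 0.999. Mdagg-3 was above mdagg-2 by 2.17 ± 0.46 log2 (SE), with an adjusted p of 1 in edgeR and 0.00836 in DESeq2.

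MD15G1280300, named for its values in this contrast, had 226 and 259 reads in wt, with mdagg-2 at 127 and 91, mdagg-3 at 107 and 133, and mdagg-4 at 29 and 45. Mdagg-2 and mdagg-3 lay at 3.73 ± 0.92 and 3.60 ± 0.14 CPM and mdagg-4 at 0.982 ± 0.20 CPM (SD, n = 2 each), so the first 2 lines overlapped and mdagg-4 stood under both. The difference of mdagg-4 from the others was -1.89 ± 0.27 log2 (SE), with an adjusted p of 0.52 in edgeR and 0.000191 in DESeq2, and up to 0.999 over the alternatives.

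MD02G1164600 had mdagg-4 as its highest line, not its lowest. It had 107 and 114 reads in wt, 2 and 0 for mdagg-2, 7 and 16 for mdagg-3 as well as 31 and 51 for mdagg-4. The level was 0.0345 ± 0.049 CPM for mdagg-2, 0.337 ± 0.15 CPM for mdagg-3 and 1.09 ± 0.26 CPM for mdagg-4 (SD, n = 2 each), against 3.04 ± 0.116 CPM in wt (SD, n = 2). No line overlapped another. Mdagg-4 was above the other lines by 3.26 ± 0.54 log2 (SE), with an adjusted p of 0.547 in edgeR and 0.00318 in DESeq2, and up to 0.999 over the alternatives.

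The contrast of mdagg-4 with the other lines was also fitted in edgeR without mdagg-2 replicate 2. That fit assumes that the lone mdagg-2 library varies like the other groups, so only log2 differences are given. They were -3.41 for MD07G1291700, -2.01 for MD15G1280300, 2.31 for MD11G1250800 and 2.79 for MD02G1164600. With all libraries they were -3.36, -1.89, 1.44 and 3.26. The cause of these changes was not tested. MD11G1250800, named for its values in that fit, had 132 and 281 reads in wt. Mdagg-2 had 13 and 76, mdagg-3 had 27 and 28, and mdagg-4 had 103 and 124. It was higher in mdagg-4 than in mdagg-3, while its mdagg-2 libraries were far apart, at 0.448 and 2.57 CPM.

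**Figure D4:**
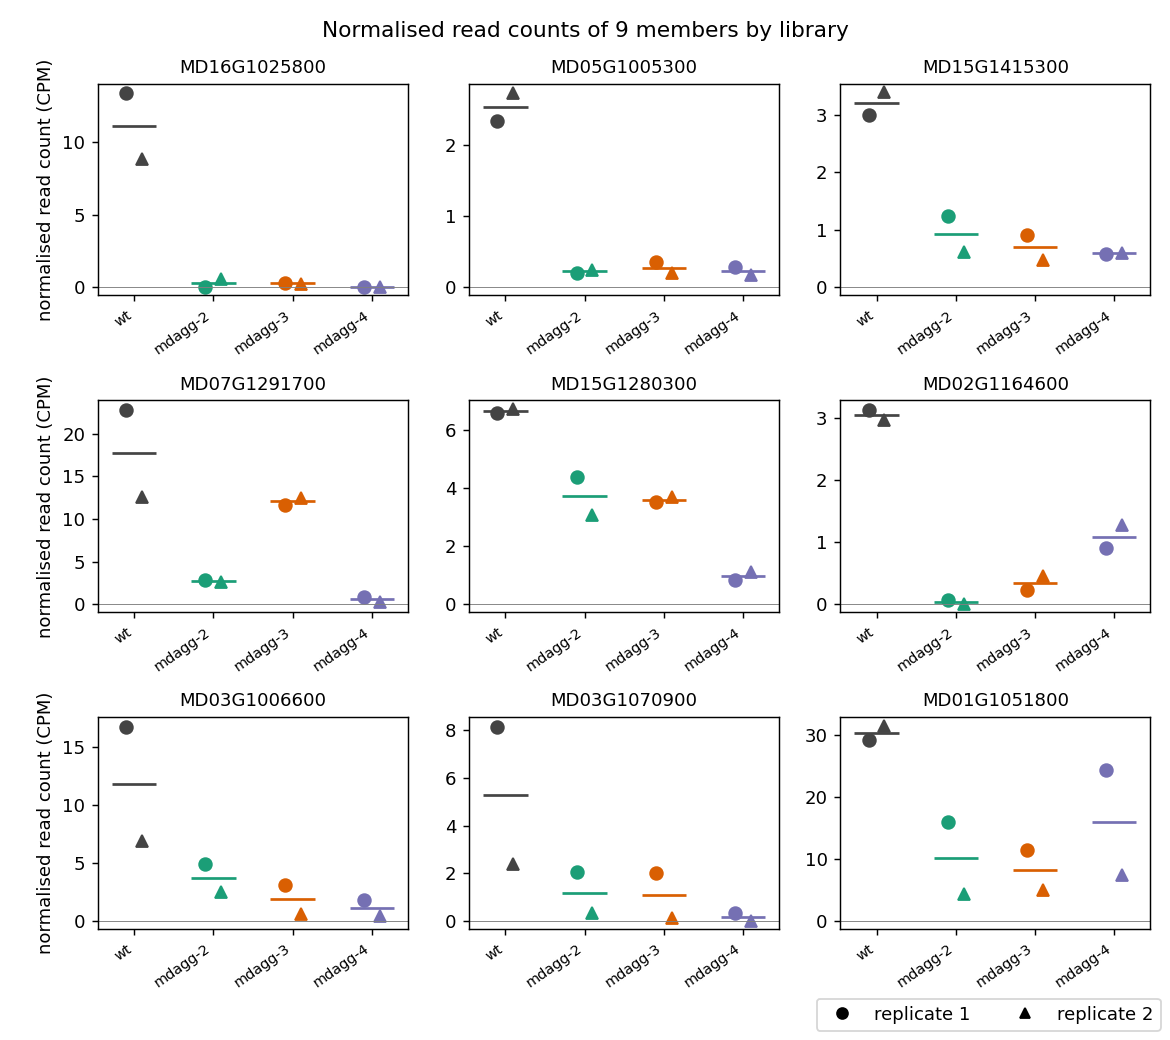
Panels give the normalised read count (CPM) of 9 members in each library, with circles for replicate 1, triangles for replicate 2 and bars for group means. MD16G1025800, MD05G1005300 and MD15G1415300 are low in each of the lines. MD07G1291700, MD15G1280300 and MD02G1164600 differ by line, and MD03G1006600, MD03G1070900 and MD01G1051800 have replicate 2 below replicate 1 in every line.

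Replicate 2 was also compared with replicate 1 across the 4 groups, in a fit with a mean per group. This fit takes a replicate number to mean the same in every group, which no label states. In edgeR's quasi-likelihood test 0 of 32373 features and 0 members differed at an adjusted p under 0.05. At an unadjusted p under 0.05 there were 3759 features (11.6%) and 10 members (13.7%), and DESeq2 called 277 features (1.09%) and 3 members (4.11%). Of the 10 members 8 were lower in replicate 2, and of the 3759 features 2086 were. Replicate 2 was below replicate 1 in all 4 groups for 7 members (9.59%, against 10.5% of all features) and above it in all 4 for 9 members (12.3%, against 10.2%). No test was made of whether the members follow the replicates more or less often than other features.

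The 3 members that DESeq2 called were MD03G1006600, MD03G1070900 and MD01G1051800, each lower in replicate 2. MD03G1006600 had 575 and 267 reads in wt, with mdagg-2 at 143 and 73, mdagg-3 at 96 and 21, and mdagg-4 at 62 and 17. Replicate 2 was below replicate 1 in 4 of 4 groups, with a difference of -1.62 ± 0.28 log2 (SE) and an adjusted p of 0.414 in edgeR and 0.000921 in DESeq2. MD03G1070900 had 279 and 92 reads in wt, 59 and 10 for mdagg-2, 62 and 4 for mdagg-3 as well as 11 and 0 for mdagg-4. It too was lower in replicate 2 in 4 of 4 groups, with a difference of -2.75 ± 0.50 log2 (SE) and an adjusted p of 0.414 in edgeR and 0.000921 in DESeq2. For both, the adjusted p ran up to 0.975 over 11 alternatives. In MD01G1051800 the replicates differed by -1.17 ± 0.33 log2 (SE), with an adjusted p of 0.414 in edgeR and 0.0473 in DESeq2. Replicate 2 was the lower in 3 of 4 groups, wt being the exception.

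The 7 other members at an unadjusted p under 0.05 did not pass either adjusted threshold. MD15G1264200 had 231 and 64 reads in wt. Mdagg-2 had 32 and 7, mdagg-3 had 44 and 3, and mdagg-4 had 3 and 5, a replicate difference of -2.15 ± 0.55 log2 (SE). MD02G1149600 had 479 and 150 reads in wt, with mdagg-2 at 98 and 56, mdagg-3 at 87 and 17, and mdagg-4 at 28 and 43, a difference of -1.24 ± 0.46 log2 (SE). In both, replicate 2 was the lower in 3 of 4 groups, with mdagg-4 the exception. The replicate difference was -1.08 ± 0.35 log2 (SE) in MD11G1009700, -1.07 ± 0.40 in MD03G1164900 and -0.71 ± 0.30 in MD12G1178800, and positive in MD13G1182300 (0.91 ± 0.30) and MD05G1168400 (0.55 ± 0.22). In these 5, each group had the same direction.

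**Figure D5:**
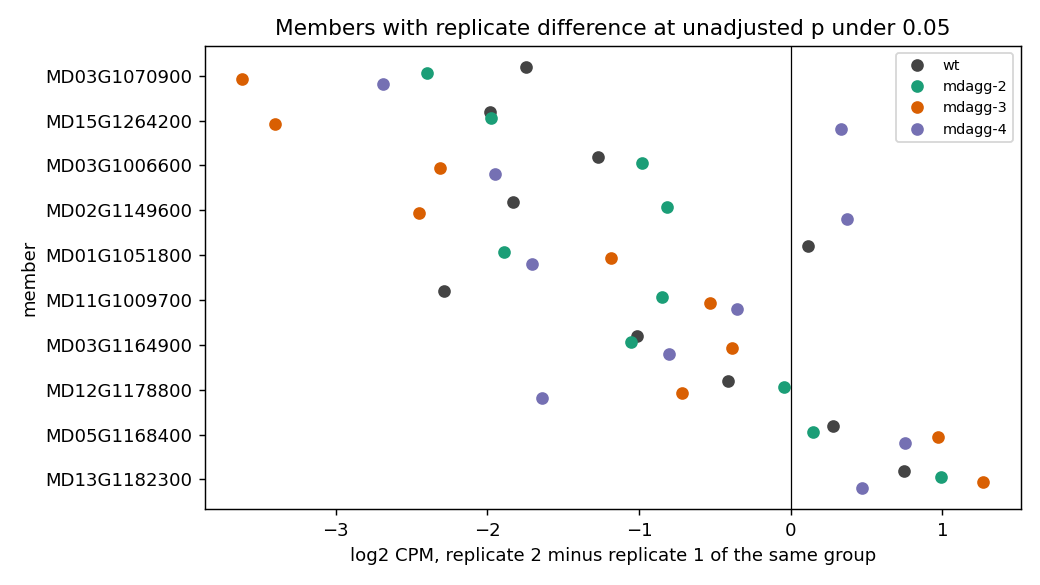
Rows are the 10 members at an unadjusted p under 0.05 between replicates, and the horizontal axis gives log2 CPM of replicate 2 minus replicate 1 within each group, with 1 point per group. In MD03G1070900 and MD03G1006600 all 4 points lie left of 0, MD13G1182300 and MD05G1168400 have all 4 right of 0, and MD15G1264200 and MD02G1149600 have the mdagg-4 point on the other side.

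The annotated length and the counting of the members also differed from those of other features, in ways the conditions did not use directly. Their length had a median of 1011 bases (25th to 75th percentile 696 to 1577, range 354 to 3466), against 1515 bases (984 to 2184) for all filtered features. Scarce features are shorter in general, and at a mean log2 CPM below 0 the medians were 867 bases in the members and 930.5 over all features of that level. Estimated reads were whole in all 8 libraries for 46 members (63%, against 25.3% of all features) and in none for 7 (9.59%, against 31.4%). An estimate that is not whole comes from reads divided among similar transcripts. Among features with a mean log2 CPM below 0 the shares were nearer, 36 of 56 members (64.3%) and 52.6% of all such features. MD01G1051800, MD01G1213110 and MD04G1020300 are among the 7 with no whole value, so their reads may be partly those of near-identical copies.

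In the naming of apple genes the digits 01 to 17 after MD give the chromosome, and the number after G rises along it. The digits 00, held by 2 members (2.74%, against 3.33% of all features), are outside that range. The files give no coordinates, so what follows is identifier order. The members were spread over all fields but 10, which held 0 of them and 6.57% of all features. Field 05 held 10 members (13.7%, against 6.96% of all features), field 02 held 8 (11%, against 6.38%) and field 13 held 7 (9.59%, against 5.28%). These are counts of a list chosen on the data and carry no test.

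Within 10 filtered features of another member lay 8 members, in 4 pairs. How many such pairs a list of this length holds by its length alone was not computed, so the pairs are a description. MD15G1415300 and MD15G1415400 are next to each other among the filtered features. MD15G1415300 had 103 and 131 reads in wt, 36 and 18 for mdagg-2, 28 and 17 for mdagg-3 as well as 20 and 24 for mdagg-4. MD15G1415400 had 16 and 29 reads in wt. Mdagg-2 had 0 and 4, mdagg-3 had 1 and 8, and mdagg-4 had 0 and 4. They differed from wt by -2.10 and -2.47 log2. The features on either side, MD15G1415200 and MD15G1415600, differed from wt by -0.15 and 0.02, so the features beside the pair were level with wt.

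MD13G1145700 and MD13G1145800 are likewise adjacent, with 16 and 18 reads and 31 and 22 reads in wt. They differed from wt by -1.46 and -1.73 log2, while MD13G1145600 before them and MD13G1145900 after them stood at 0.39 and 0.16. MD11G1171500 and MD11G1172000 are 3 features apart, at -1.11 and -2.26, and the 2 features between them, MD11G1171700 and MD11G1171800, at -0.08 and -0.04. Before the pair, MD11G1171300 stood at 0.09, and MD11G1171100, with 9 and 17 reads in wt, at -1.20 without being a member. MD11G1172000 was uneven, with 16 and 26 reads in wt, with mdagg-2 at 0 and 5, mdagg-3 at 0 and 12, and mdagg-4 at 7 and 0. Its estimated reads were whole numbers only in the 3 libraries with 0 reads, so the others hold reads divided among similar transcripts.

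The pair MD05G1331300 and MD05G1333100, 7 features apart, lies in a stretch with more than these low features. MD05G1331300 had 102 and 58 reads in wt, 34 and 20 for mdagg-2, 25 and 47 for mdagg-3 as well as 30 and 35 for mdagg-4, a difference of -1.14 log2. MD05G1333100 had 17 and 24 reads in wt and 1 to 14 in each knock-out library, a difference of -1.18. The features that follow MD05G1331300, MD05G1331700, MD05G1332000 and MD05G1332100, stood at -0.13, -0.09 and 0.30. The next ones, up to MD05G1333100, were MD05G1332300 at -0.91, MD05G1332600 at -0.48 and MD05G1332700 at -1.15, without being members. Just before the pair, MD05G1329500 stood at -0.88 and MD05G1329600 at -0.74, so values below wt lay on both sides of a level block.

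At the edge of the conditions the members passed narrowly. Just inside were MD12G1113300 at -1.004 log2, MD16G1050000 at -1.02 and MD04G1014600 at -1.02. Just outside, with all knock-out libraries below wt, were MD04G1214900 at -0.99, MD08G1053100 at -0.97 and MD10G1117600 at -0.97. MD12G1113300 had 27 and 25 reads in wt. Mdagg-2 had 11 and 19, mdagg-3 had 5 and 5, and mdagg-4 had 20 and 13. MD08G1053100 had 82 and 131 reads in wt, with mdagg-2 at 27 and 54, mdagg-3 at 42 and 46, and mdagg-4 at 69 and 56. The non-member MD08G1053100 thus had more reads and a wider separation from wt (0.249 against 0.013 log2 units) than the member MD12G1113300, and the limit of 1 log2 unit divides features of like behaviour.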

How the data were processed

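Leaf messenger RNA of 8 libraries was sequenced, and the authors deposited for each library a table in Salmon's column layout with transcript length, TPM and estimated count of reads, per the file headers. The submitters' processing notes name Salmon and DESeq2. Neither a genome build nor an annotation is given in the sources used here. No normalization was applied to the estimated counts by the authors, and the TPM values were scaled per length and library, per the file headers. The authors' deposited table of each line against wt holds, per the file headers, p-values beside log2 fold changes and the adjusted p-values, all copied as they stand. Its 12 count columns and 6 other columns of log values were not used.

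Estimated counts were rounded to whole numbers, filtered with edgeR's filterByExpr by the 4 groups and scaled with TMM (edgeR 4.0.16, R 4.3.3). Log2 CPM used a prior count of 2. Contrasts were tested with edgeR's quasi-likelihood test in 1 fit of all 8 libraries (4 residual degrees of freedom), with Benjamini-Hochberg adjustment over 32373 features and a threshold of 0.05. The replicate contrast came from a fit with group and replicate number (3 residual degrees of freedom). DESeq2 1.42.0, without the filter, was an alternative. A standard error was taken as the log2 difference divided by the square root of F. The scripts were tested on simulated data. Libraries of a group differed by more than sampling noise (chi-square of 46.8 to 88.6 per feature). A value was called whole within 1e-06. Correlations of features over libraries are descriptions.

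The members and lists were chosen with earlier results of these data known. Identifiers matched no reference name, so no gene list and no sequence was used. Members named were the 10 with the largest difference among those with 50 or more reads in both wt libraries, the 8 with the highest wt CPM, those listed lower in 2 or more lines in the authors' deposited table, the 3 on each side of the limit, neighbours within 10 features, and the 3 features most like MD05G1005300. MD13G1258800, MD14G1169000, MD15G1280300, MD11G1250800, MD12G1178800, MD13G1182300, MD02G1295700, MD02G1276600 and MD02G1037300 were named after their values were seen. Alternatives covered scaling, prior count, the filter, TPM with a pseudocount of 0.1, the test, a replicate term and leaving out each library.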

Additional observations from a re-analysis of the deposited data

How the results depend on the processing

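The number of members (73) was 72 with median-of-ratios scaling, 82 with a prior count of 0.5, 69 on the authors' TPM (62 of them among the 73) and 75 with the left-out identifiers kept. It was 171 without the low-count filter, 36 when each line had to be lower by 1 log2 unit, 166 without the 2 libraries at the ends of the first component (a setting chosen after seeing the data), and 99 to 483 without 1 library. Without the filter, edgeR called 4 features between the lines, MD07G1291700 among them. It called 1 feature for mdagg-4 against the others and 6 for the mean of the lines against wt. DESeq2 called 67, 15, 71, 277 and 72 features between lines, for mdagg-3 against mdagg-2, for mdagg-4 against the others, between replicates and for the lines against wt, with 3, 1, 3 and 3 members in the first 4 of these. Without 1 library, edgeR called 0 to 705 features and 0 to 4 members for mdagg-4, 0 to 1 feature for mdagg-3 against mdagg-2 and 0 to 1 for the lines against wt. Leaving out a library loosens the first condition, so the larger numbers of members follow in part from the rule. The cause of the other changes was not tested. No label says that a replicate number pairs libraries across groups. The replicate deviations correlated between groups from -0.314 to 0.529, above 0.1 in 3 of 6 pairs of groups. The main tests between groups therefore did not treat the numbers as pairs. Only the replicate contrast and the replicate block took the number as shared by the groups. With a replicate block edgeR called 1 feature between lines, 1 for mdagg-3 against mdagg-2, 0 for mdagg-4 and 0 for the lines against wt, and 0 members throughout, as without it. The difference from wt was recomputed for the members named by the rule, and none changed direction. That outcome was largely fixed by the choice, since every knock-out library of a member lies below both wt libraries. The difference of mdagg-4 from the other lines, recomputed for MD07G1291700, MD15G1280300 and MD02G1164600, kept its direction too.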
